A study of Mus musculus with 12 samples.

Results

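The 10 genes described here mark the endothelial cells of the liver sinusoids, and were followed across mouse livers: Stab1, Stab2, Lyve1, Clec4g, Pecam1, Kdr, Oit3, Fcgr2b, Dnase1l3 and Gpr182. They were taken as a list of names that applies no cut on measured values but was drawn up with earlier results of these data known. All 10 were found among the 55471 genes of the count table and among the 13866 genes that passed the filter on low counts. The livers came from C57BL/6 mice in 4 groups of 3 samples. SD livers came from mice on a standard diet, and MASLD livers from mice on a diet that the labels name only by the disease, metabolic dysfunction-associated steatotic liver disease. The other two groups received the same MASLD diet together with the drug Aza-TdC, at relative doses of 0.1x and 1x. Aza-TdC is a nucleoside analog of deoxycytidine that inhibits DNA methylation, and the title of the series concerns the DNA methyltransferase DNMT1 in this disease. All groups shared strain and tissue. The labels used here give no absolute dose, no make-up of the diets and no age or sex of the mice.

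Sinusoidal endothelial cells line the capillaries of the liver with a thin, perforated wall and no continuous basement membrane, so that plasma reaches the hepatocytes. They are among the most active scavenging cells of the body and clear hyaluronan, collagen fragments, modified lipoproteins and small immune complexes from the blood. In chronic liver disease they can lose their pores and scavenger receptors and gain features of ordinary capillaries, a change known as capillarization. Of the 10 genes, 5 encode such clearing receptors: the scavenger receptors stabilin-1 (Stab1) and stabilin-2 (Stab2), the hyaluronan receptor Lyve1, the lectin Clec4g and the inhibitory Fc receptor Fcgr2b. Kdr is the main receptor for vascular endothelial growth factor A, Pecam1 is an adhesion molecule of endothelial junctions, and Gpr182 is an atypical chemokine receptor. Dnase1l3 is a secreted nuclease that digests DNA in cell debris, and Oit3 is a secreted protein with a zona pellucida domain.

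Whether the 3 samples of a group were separate animals is not stated, and the p-values cover the spread between the samples alone, which may be technical. Whole liver was sequenced, and fewer cells of a type and less RNA per cell cannot be told apart. Total counts ran from 30213048 to 41852606 per library, and counts of single genes on the list from 78 for Lyve1 in SD sample 4 to 2655 for Clec4g in 1x sample 2. Counts are given below as CPM, the count of a gene divided by the total of its library and put on a common scale, scaled between libraries by the trimmed mean of M-values (TMM). The scaling factors of the SD libraries, 0.852 to 0.866, lay apart from those of the other 9, 0.960 to 1.15.

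The genes lie at 10 separate places on 7 chromosomes of mm10. Stab1 (ENSMUSG00000042286) spans chr14:31139013-31168641, Stab2 (ENSMUSG00000035459) chr10:86841198-87008025, Lyve1 (ENSMUSG00000030787) chr7:110850607-110863239, Clec4g (ENSMUSG00000074491) chr8:3707064-3720651 and Fcgr2b (ENSMUSG00000026656) chr1:170958617-170976547. Kdr (ENSMUSG00000062960) spans chr5:75932827-75978458, Pecam1 (ENSMUSG00000020717) chr11:106654217-106750628, Gpr182 (ENSMUSG00000058396) chr10:127747276-127751732, Dnase1l3 (ENSMUSG00000025279) chr14:7964533-7994573 and Oit3 (ENSMUSG00000009654) chr10:59422958-59441778. All 10 are protein-coding and all 10 lie on the minus strand, where 50.1% of the genes tested lie. Stab1 shares 112 exon bases, 1.09% of its own, with Nt5dc2 on the other strand. Gpr182 shares 74, or 1.87%, with Zbtb39. Antisense genes overlap exons of Stab2, Clec4g and Fcgr2b, and held at most 1 count in any library. Of the 50-base stretches in the longest transcript of Fcgr2b, 8.61% also occur in other genes, mostly in the Fc receptor gene Fcgr3, and the share was at most 1.17% for the other 9 genes.

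Promoter windows from RefSeq (GRCm38.p6) were at hand for 5 of the 10 genes: Stab1, Stab2, Clec4g, Kdr and Fcgr2b. The 250 bases before the start of a stabilin and of the lectin Clec4g are shown. The order of group means differed between these 2 scavenging receptors, as given below, but this difference was not tested. With the trend of counts on GC content and length removed, the log2 fold change at 0.1x against MASLD was 0.25 for Stab1 and 0.11 for Clec4g. Neither passed. Both stretches are written 5′ to 3′ on the strand of the gene, which is the minus strand. Stab1 covers chr14:31168642-31168891 and Clec4g covers chr8:3720652-3720901. Capitals mark the core of sites for ETS factors, which act in all endothelial cells, searched as AGGAAG or CGGAAG on both strands.
Stab1: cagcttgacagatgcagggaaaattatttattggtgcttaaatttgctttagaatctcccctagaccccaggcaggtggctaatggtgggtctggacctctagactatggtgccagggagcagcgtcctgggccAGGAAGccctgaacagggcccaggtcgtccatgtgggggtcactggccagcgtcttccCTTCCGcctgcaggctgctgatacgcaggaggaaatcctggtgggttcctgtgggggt
Clec4g: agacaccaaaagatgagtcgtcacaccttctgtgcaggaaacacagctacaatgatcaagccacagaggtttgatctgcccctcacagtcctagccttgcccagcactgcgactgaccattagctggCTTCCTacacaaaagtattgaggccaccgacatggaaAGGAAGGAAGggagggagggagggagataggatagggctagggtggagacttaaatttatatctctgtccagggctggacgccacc
These ETS cores were found before the start of Stab1, Stab2 and Clec4g, 3 of the 5, and in 39.2% of all 32851 windows of the same length. In Clec4g 2 of the matches overlap each other. AGATAA is a form of the core bound by GATA factors such as the sinusoidal regulator Gata4. It occurred in 0 of the 5 and in 9.99% of all windows, and other forms of this core were not searched. TGCTGAC, for MAF factors, occurred in 0 of the 5 and in 3.81% of all. ACAATG, for SOX factors, occurred in Clec4g and in 10.7% of all, and CACCC, for KLF factors, in Clec4g, Kdr and Fcgr2b and in 52.0% of all. Matches of this kind describe the letters of these windows, not bound sites.

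Among the scavenger receptors, the 2 stabilins were lowest in SD livers and highest in MASLD or 1x livers. Stab1 stood at 15.45, 13.93 and 16.11 CPM in SD samples 3, 4 and 5, at 19.21, 21.16 and 23.45 in MASLD samples 3, 4 and 5, at 17.11, 16.36 and 20.51 in 0.1x samples 1, 3 and 4 and at 25.75, 18.50 and 24.26 in 1x samples 2, 4 and 5. Stab2, in the same order of libraries, stood at 15.73, 12.82 and 12.97 CPM in SD, at 22.07, 23.70 and 22.65 in MASLD, at 17.70, 16.91 and 20.28 in 0.1x and at 24.01, 17.78 and 22.38 in 1x livers. Every SD library lay below every other library for both stabilins, and the 0.1x libraries of Stab2 all lay below the MASLD libraries. Lyve1 stood at 5.01, 2.47 and 2.27 CPM in SD, at 11.15, 12.10 and 15.23 in MASLD, at 5.30, 5.14 and 8.32 in 0.1x and at 10.99, 5.97 and 8.06 in 1x livers. On the log2 scale Lyve1 had the widest spread of the 10 genes, and its 3 MASLD libraries were above all 9 others.

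Clec4g and Fcgr2b had another order of group means, with both drug groups above MASLD, as was also so for Dnase1l3 and Gpr182. In the main analysis neither Clec4g nor Fcgr2b passed against MASLD at either dose, as given below. Clec4g stood at 34.49, 29.48 and 37.22 CPM in SD, at 40.64, 37.16 and 45.12 in MASLD, at 51.05, 58.69 and 49.17 in 0.1x and at 55.81, 48.27 and 44.85 in 1x livers. Fcgr2b stood at 26.95, 18.84 and 23.87 CPM in SD, at 27.46, 32.29 and 33.97 in MASLD, at 48.26, 38.17 and 36.40 in 0.1x and at 45.34, 34.98 and 42.71 in 1x livers. For Fcgr2b all 6 libraries with the drug lay above all 6 without it. For Clec4g 1x sample 5 lay just below MASLD sample 5, and the other 5 drug libraries lay above all libraries without the drug.

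Kdr, Pecam1 and Gpr182 act in endothelial signalling and at cell junctions, and their group means were lowest in SD livers. Kdr stood at 20.98, 17.86 and 17.65 CPM in SD, at 19.18, 22.06 and 24.19 in MASLD, at 21.63, 19.53 and 19.79 in 0.1x and at 27.54, 25.43 and 21.35 in 1x livers. Pecam1 stood at 12.59, 7.63 and 10.06 CPM in SD, at 13.84, 18.16 and 16.51 in MASLD, at 13.92, 9.40 and 15.43 in 0.1x and at 14.99, 12.62 and 12.63 in 1x livers. Gpr182 stood at 18.28, 12.98 and 14.80 CPM in SD, at 19.32, 17.52 and 18.33 in MASLD, at 20.24, 14.51 and 22.01 in 0.1x and at 21.80, 18.23 and 22.54 in 1x livers. SD and MASLD libraries overlapped for Kdr and Gpr182 and did not for Pecam1, and 0.1x sample 3 was the lowest of its group for all 3 genes.

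Of the secreted products, Dnase1l3 stood at 43.56, 28.84 and 28.64 CPM in SD, at 34.47, 32.83 and 41.94 in MASLD, at 46.68, 29.95 and 38.46 in 0.1x and at 53.27, 39.25 and 44.61 in 1x livers. SD sample 3 exceeded all 3 MASLD libraries for this nuclease. Oit3 stood at 17.40, 10.48 and 14.22 CPM in SD, at 18.82, 16.26 and 21.35 in MASLD, at 16.67, 17.22 and 17.99 in 0.1x and at 22.32, 17.92 and 20.38 in 1x livers. For Oit3 the 1x libraries lay above those of SD, and the MASLD libraries overlapped both.

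**Figure D1:**
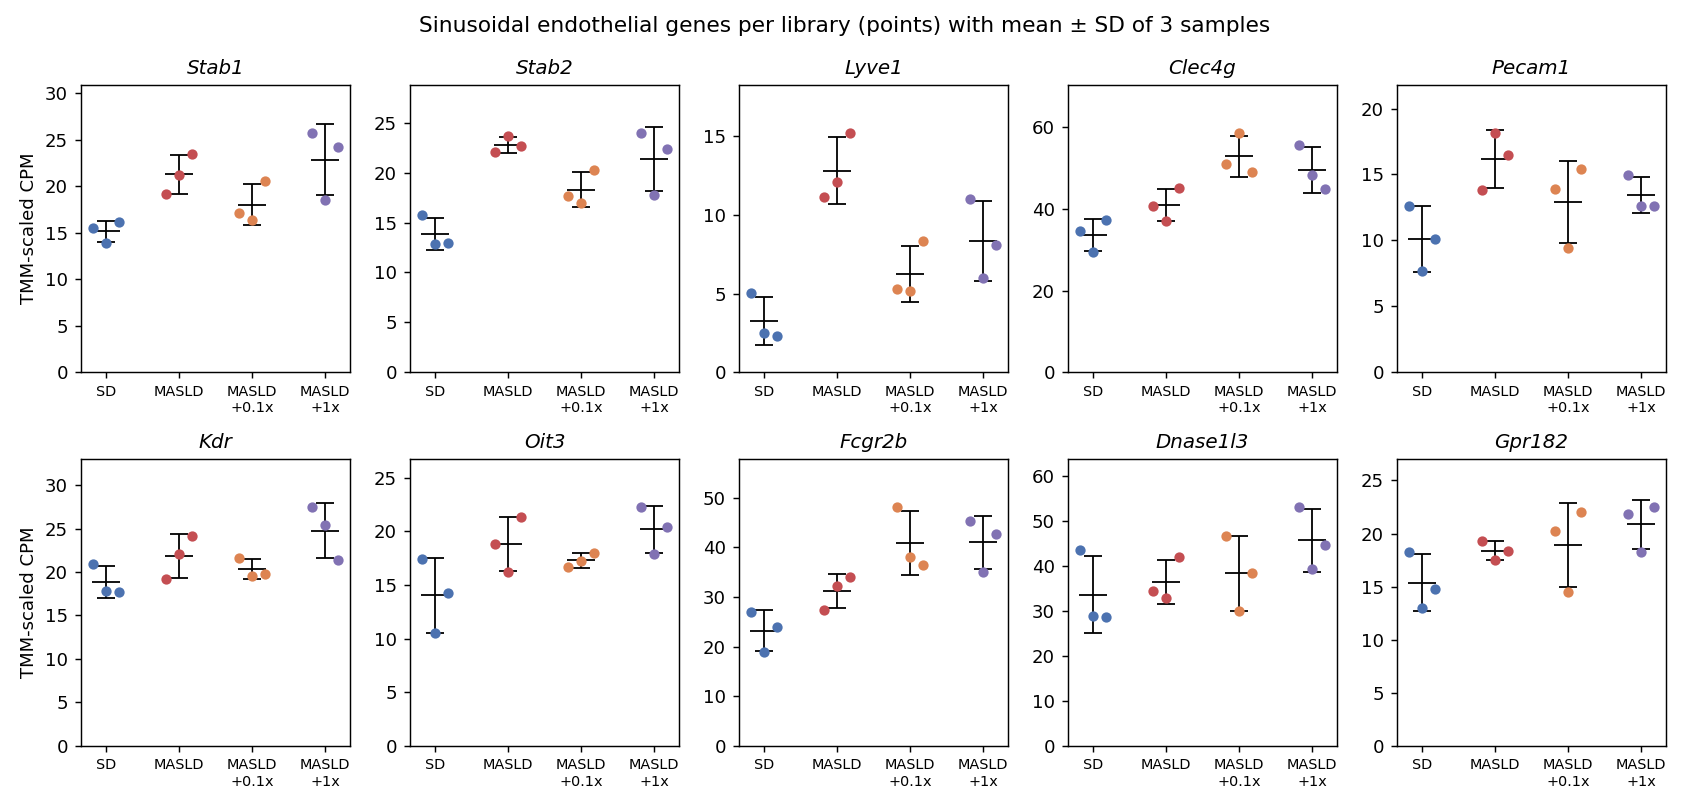
Level of each of the 10 sinusoidal endothelial genes in TMM-scaled CPM (vertical axis, from 0) in the 4 groups (horizontal axis). Points are libraries, and the bars are the mean ± SD of 3 samples. Lyve1 has its 3 MASLD libraries above all others, and Fcgr2b its 6 drug libraries above the 6 without the drug.

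The group mean was lowest in SD livers for 10 of 10 genes. It was highest in 1x livers for 6 genes, in MASLD livers for Stab2, Lyve1 and Pecam1, and in 0.1x livers for Clec4g. Per kilobase of exon, a scale that allows for gene length, the SD levels ran from 1.11 ± 0.52 CPM per kb (SD, n = 3) for Lyve1 to 13.7 ± 1.59 for Clec4g. The length is that of all annotated exons of a gene together, which can exceed its longest transcript. For Pecam1 these are 6228 and 3441 bases, and for Clec4g 2462 and 1442. The order given here holds for this length only. Stab1 (1.47 ± 0.11), Stab2 (1.58 ± 0.19) and Pecam1 (1.62 ± 0.40) were neighbours at the low end that did not differ beyond their spread. Kdr stood at 2.09 ± 0.21, Gpr182 at 3.88 ± 0.68, Fcgr2b at 4.01 ± 0.71, Oit3 at 5.03 ± 1.24 and Dnase1l3 at 6.54 ± 1.66 CPM per kb. Gpr182, Fcgr2b and Oit3 likewise lay within 1 SD of the next in order, and Clec4g stood clear of Dnase1l3.

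The comparison of MASLD with SD livers asks what the diet changes. Lyve1, the hyaluronan receptor, rose most: from 3.25 ± 1.53 to 12.8 ± 2.14 CPM (SD, n = 3), a 3.97-fold difference. Stab2 rose 1.65-fold, Pecam1 1.60-fold, Stab1 1.40-fold and Fcgr2b 1.35-fold. The estimates of all 10 genes were above 0, but Clec4g, Oit3, Gpr182, Kdr and Dnase1l3 did not pass. So 5 of 10 genes rose and 0 fell at an adjusted p under 0.05, where 15.6% of all genes tested rose and 13.9% fell. The median log2 fold change of the 10 was 0.43, beside 0.03 over all genes tested. For 5 of the 10 every MASLD library exceeded every SD library, as it did for 25.1% of all genes, and for 0 every MASLD library was below, as for 22.8% of all genes.

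In log2 terms, Lyve1 rose by 1.99 ± 0.30 (SE; adjusted p = 0.000213, edgeR quasi-likelihood test with Benjamini-Hochberg adjustment, as are all adjusted p-values below). Stab2 rose by 0.72 ± 0.13 (adjusted p = 0.00106). These 2 calls held in each of 17 alternative analyses. Stab1 rose by 0.49 ± 0.14 (adjusted p = 0.0184), and its call was lost without SD sample 4, MASLD sample 4 or MASLD sample 5 (adjusted p = 0.0579 to 0.0774) and with the trend of counts on GC content and length removed (0.23, adjusted p = 0.206). Pecam1 rose by 0.68 ± 0.20 (adjusted p = 0.0182), a call lost without SD sample 4, SD sample 5 or MASLD sample 4 (adjusted p = 0.0530 to 0.0850). Fcgr2b passed narrowly, at 0.43 ± 0.15 (adjusted p = 0.0494), and was lost without SD sample 4, SD sample 5, MASLD sample 4 or MASLD sample 5 (adjusted p = 0.0962 to 0.195) and with RLE size factors (adjusted p = 0.0602), DESeq2 (adjusted p = 0.0544) or the same trend removed (0.36, adjusted p = 0.0868).

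Among the genes that did not pass, Oit3 came nearest, at 0.42 ± 0.16 (adjusted p = 0.0633), and it passed without SD sample 3 (0.60, adjusted p = 0.0138). Clec4g was at 0.28 ± 0.13 (adjusted p = 0.107), and passed with that trend removed (0.48, adjusted p = 0.0110). Gpr182 was at 0.26 ± 0.16 (adjusted p = 0.241), Kdr at 0.21 ± 0.13 (adjusted p = 0.228) and Dnase1l3 at 0.11 ± 0.19 (adjusted p = 0.686). With the trend removed Kdr was at 0.01 and Dnase1l3 at -0.04. The fitted 95% interval of the fold for Dnase1l3, 0.8 to 1.46, includes both a fall and a rise. With library totals in place of TMM factors, 9 of the 10 rose, and over all genes 5434 rose and 673 fell, against 2164 and 1921 with TMM. That scaling moved the median log2 fold change of all genes tested from 0.03 to 0.39 and that of the 10 genes from 0.43 to 0.79.

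Other markers moved with the diet too, and the sums of their CPM are given here for the whole lists. Hepatocyte markers fell for 11 of 12 genes, with summed levels of 187947 to 201908 CPM in SD and 95969 to 118521 in MASLD libraries. Stellate cell markers rose for 12 of 15 (321 to 350 CPM in SD, 474 to 594 in MASLD), Kupffer cell markers for 8 of 13 (340 to 403 and 469 to 628) and markers of monocytes and lipid-associated macrophages for 10 of 13 tested (56.5 to 114 and 149 to 326). None of the genes on these 4 lists was at 0 in any group. Macrophages are known to carry Lyve1, Stab1 and Dnase1l3 in some states, and Fcgr2b as well. Cholangiocyte markers rose for 4 of 9 tested, lymphatic endothelial markers for 3 of 5 (73.3 to 135 CPM in SD, 99.7 to 134 in MASLD) and platelet markers for 0 of 5. Lymphatic vessels also carry Lyve1. The lymphatic markers that rose were Reln, Flt4 and Mmrn1, of which Reln is also a stellate cell marker here and Flt4 a sinusoidal gene. The lymphatic chemokine Ccl21a was at 0 counts in every group, and Ccl21a, Nts and Foxc2 were not tested. The part of these cell types in the changes of the 10 genes was not tested.

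B cell markers bear on Fcgr2b, an Fc receptor that B cells also carry. They summed to 269 CPM in SD sample 5 and to 6.70 to 22.2 CPM in the other 11 libraries. On the diet 1 of the 6 tested fell, Ighm, and 0 rose. Fcgr2b itself was at 23.87 CPM in SD sample 5, between the other SD libraries. Dendritic cell markers passed in neither direction for 5 of 5 genes tested on the diet.

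**Figure D2:**
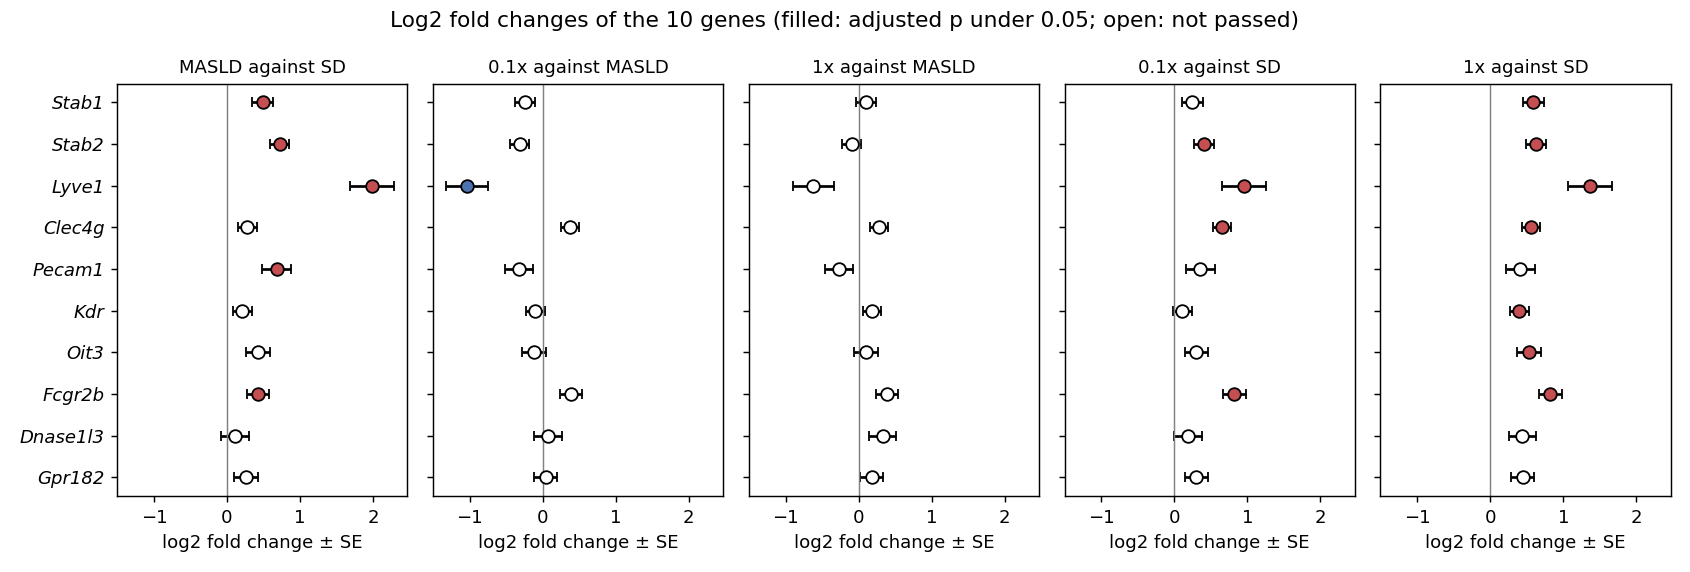
Log2 fold change ± SE (horizontal axis) of the 10 genes (rows) in 5 comparisons (panels). Filled points passed an adjusted p under 0.05, in red where higher and blue where lower, and open points did not. Lyve1 lies farthest from 0 in the diet panel, at 1.99, and is the 1 filled point in the panel of 0.1x against MASLD.

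The 0.1x dose on the MASLD diet was set against the diet alone to see what the low dose changes. Lyve1 fell to 6.26 ± 1.79 from 12.8 ± 2.14 CPM (SD, n = 3), 2.05-fold lower. No other gene of the 10 passed, so 0 rose and 1 fell, where 6.08% of all genes rose and 7.09% fell. Without overlap between groups, Stab2 and Lyve1 were lower and Clec4g and Fcgr2b higher, 2 and 2 of the 10, where 18.7% of all genes were lower and 16.8% higher in this way. The median log2 fold change of the 10 was -0.11, beside -0.02 over all genes.

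Lyve1 fell by 1.04 ± 0.29 on the log2 scale (adjusted p = 0.0304). The call was lost without MASLD sample 3, 4 or 5 or 0.1x sample 1 or 3 (log2 fold changes of -1.13 to -0.89, adjusted p = 0.0581 to 0.108) and once the GC and length trend was removed (-1.08, adjusted p = 0.0620). Clec4g was at 0.37 ± 0.13 (adjusted p = 0.0636), and passed with upper-quartile factors (adjusted p = 0.0481) and with DESeq2 (adjusted p = 0.0341). Its estimate shrank to 0.11 (adjusted p = 0.670) once the GC and length trend was removed, and to 0.24 (adjusted p = 0.267) with library totals. Fcgr2b was at 0.39 ± 0.15 (adjusted p = 0.0998) and Stab2 at -0.32 ± 0.13 (adjusted p = 0.117). Pecam1 (-0.33 ± 0.20), Stab1 (-0.24 ± 0.14), Oit3 (-0.12 ± 0.16), Kdr (-0.10 ± 0.13), Dnase1l3 (0.08 ± 0.19) and Gpr182 (0.04 ± 0.16) had adjusted p-values from 0.258 to 0.888. GC content and length accounted for 22.3% of the variance, over genes, in the log2 difference of 0.1x sample 3 from the mean library, and for 0.247 to 18.6% in the other 11 libraries. With that trend removed the estimates of Stab1 (0.25), Stab2 (0.13) and Kdr (0.20) took the other sign and still did not pass.

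The 1x dose was set against the diet alone in the same way. None of the 10 genes passed, where 1.49% of all genes rose and 1.62% fell. At an unadjusted p under 0.05 there were 3 of 10, beside 17.0% of all genes, and DESeq2 called 0 of 10, beside 5.81% of all genes. Lyve1 was lower in each 1x library than in each MASLD library, at -0.62 ± 0.28 (adjusted p = 0.271), and Fcgr2b higher, at 0.39 ± 0.15 (adjusted p = 0.195), 1 gene each way, where 14.3% of all genes were lower and 13.5% higher without overlap. Lyve1 passed with no filter on low counts (-0.62, adjusted p = 0.0151). Clec4g was at 0.28 ± 0.13 (adjusted p = 0.273). The other 7 ran from -0.27 ± 0.19 for Pecam1 to 0.33 ± 0.19 for Dnase1l3. For Stab2 the fitted 95% interval of the fold, 0.761 to 1.16, leaves room for a change of either sign.

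Set against each other, the 2 doses gave no call among the 10 genes, where 7.13% of all genes were higher at 1x and 5.86% lower. At an unadjusted p under 0.05 there were 2 of 10, beside 30.4% of all genes, and DESeq2 called 0 of 10, beside 17.2% of all genes. Stab1 was at 0.34 ± 0.14 (adjusted p = 0.114) and Kdr at 0.29 ± 0.13 (adjusted p = 0.144), both higher at 1x with overlapping libraries; 0 of the 10 were free of overlap, where 16.3% of all genes were higher and 14.5% lower without it. Stab1 passed without 1x sample 4 (0.48, adjusted p = 0.0386), and its estimate was -0.09 with the GC and length trend removed, as that of Stab2 was -0.17 instead of 0.23. Fcgr2b was at 0.002 ± 0.15, with a fitted 95% interval of the fold of 0.784 to 1.28. Lyve1 was at 0.42 ± 0.29 (adjusted p = 0.347).

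Both drug groups were also compared with SD livers, which differ from them in diet and drug together. In 0.1x livers 4 of 10 genes were higher and 0 lower than in SD, where 9.85% of all genes were higher and 10.9% lower. Fcgr2b was 1.76-fold higher (log2 0.82 ± 0.16, adjusted p = 0.00209) and Clec4g 1.57-fold higher (0.65 ± 0.13, adjusted p = 0.00245). Both calls held in all 17 alternatives. Lyve1 was at 0.95 ± 0.30 (adjusted p = 0.0375), lost without SD sample 4, SD sample 5 or 0.1x sample 4 (adjusted p = 0.133 to 0.150) and once the GC and length trend was removed (0.90 ± 0.32, adjusted p = 0.0598), where the fold stayed close to its main value. Stab2 was at 0.40 ± 0.13 (adjusted p = 0.0450), lost without SD sample 4, SD sample 5, 0.1x sample 1 or 0.1x sample 4 (adjusted p = 0.0730 to 0.154). Gpr182 did not pass (0.30 ± 0.16, adjusted p = 0.208), but did without 0.1x sample 3 (0.46, adjusted p = 0.0400).

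In 1x livers 7 of 10 genes were higher than in SD and 0 lower, where 9.91% of all genes were higher and 9.84% lower. Fcgr2b was at 0.82 ± 0.15 (adjusted p = 0.00203), and its call held in all 17 alternatives. Stab2 (0.63 ± 0.13, adjusted p = 0.00434), Lyve1 (1.37 ± 0.30, adjusted p = 0.00522) and Clec4g (0.56 ± 0.13, adjusted p = 0.00651) kept their calls when any 1 library was left out. Stab1 was at 0.59 ± 0.14 (adjusted p = 0.00905), and lost its call without 1x sample 2 (0.49, adjusted p = 0.0560). Oit3 (0.53 ± 0.16, adjusted p = 0.0342) lost it without SD sample 4 or 5 or 1x sample 2 or 5 (adjusted p = 0.0830 to 0.145), and Kdr (0.40 ± 0.13, adjusted p = 0.0404) without SD sample 4 or 5 or 1x sample 2 or 4 (adjusted p = 0.0953 to 0.182) and once the GC and length trend was removed (0.24, adjusted p = 0.152). Gpr182 (0.44 ± 0.16, adjusted p = 0.0662) and Dnase1l3 (0.44 ± 0.19, adjusted p = 0.116) passed, of the libraries left out in turn, without SD sample 3 (adjusted p = 0.0273 and 0.0209). Pecam1 was at 0.41 ± 0.20 (adjusted p = 0.159). Without overlap, 5 genes were higher in 0.1x and 8 in 1x than in SD livers, where 15.3% and 19.4% of all genes were. These comparisons share the SD libraries with the diet comparison and with each other.

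**Figure D3:**
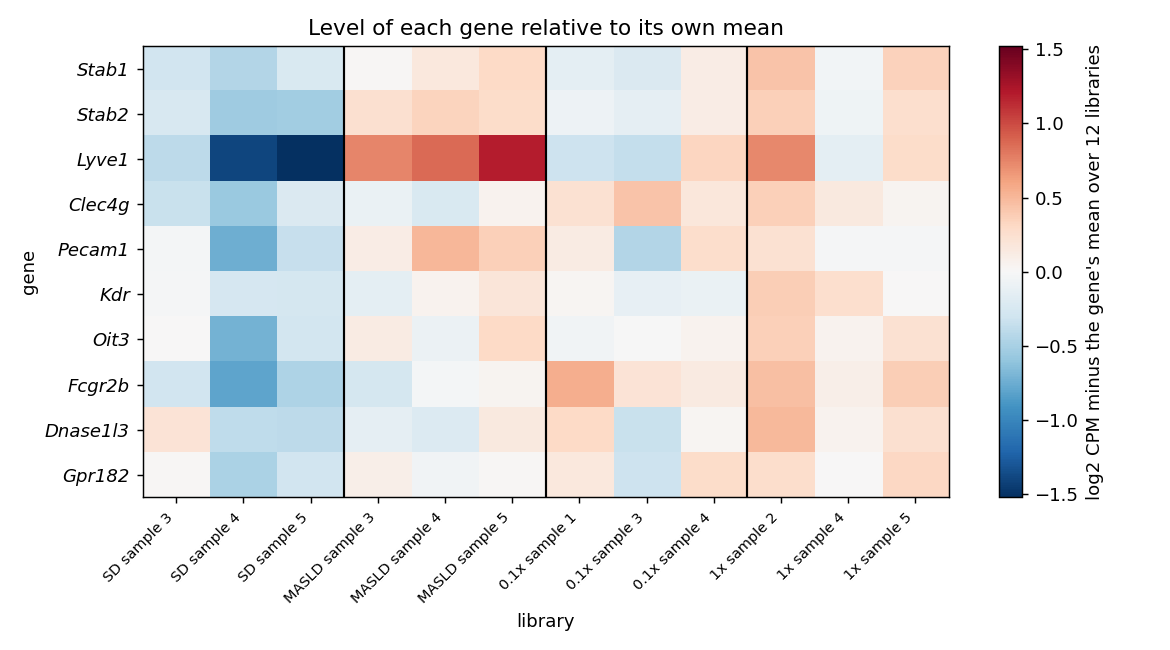
Log2 CPM of each of the 10 genes (rows) minus its mean over the 12 libraries (columns, by group), from blue (below the mean) to red (above). The SD columns are mostly blue, and 1x sample 2 is red in every row. Lyve1 spans the widest range on this log2 scale.

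Libraries of 1 group differed in the same direction for most of the 10 genes. SD sample 3 was the highest SD library for 8 of 10 genes and SD sample 4 the lowest for 7. MASLD sample 5 was highest in its group for 7, and 0.1x sample 3 lowest in its group for 7. Among the 1x livers sample 2 was highest for 9 and sample 4 lowest for 8. The Kupffer cell sum was also highest in 1x sample 2, at 490 CPM, and lowest in 1x sample 4, at 328. It was likewise highest in SD sample 3 (403) and lowest in SD sample 4 (340) and in 0.1x sample 3 (526). In MASLD livers it ran the other way, highest in sample 3 (628) and lowest in sample 5 (469). A link between this sum and the 10 genes was not tested. Summed over the 10 genes, the SD libraries held 155 to 210 CPM, the MASLD libraries 226 to 263, the 0.1x libraries 226 to 259 and the 1x libraries 239 to 302.

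Over the 12 libraries, Pearson's r between pairs of the 10 genes, on log2 CPM, ran from 0.31 to 0.97 over 45 pairs, with a median of 0.68. After the group means were taken off, it ran from -0.10 to 0.89, with a median of 0.59. These points share libraries and depth, and the values are descriptions. Stab2 followed the mean of the other 9 most closely (r = 0.92), then Oit3 (0.90) and Stab1 (0.87), and Clec4g least (0.58, and 0.24 within groups). The 5 genes outside the list whose log2 CPM was most like the mean of the 10, by r over 12 libraries, were Adgrf5 (0.96), an adhesion receptor of endothelium, Mmrn2 (0.94), an endothelial matrix protein, Parvb (0.94), Lgals3bp (0.94) and Prpf31 (0.94). Adgrf5 stood at 13.7 ± 2.95 CPM in SD, 20.1 ± 1.39 in MASLD, 16.4 ± 1.35 in 0.1x and 21.2 ± 2.74 in 1x livers (SD, n = 3). Of the 13856 other genes tested, 28 had an r of 0.9 or more.

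Cdh5, the endothelial cadherin of cell junctions, gives a measure of endothelial RNA of any vessel. It stood at 12.3, 8.61 and 8.37 CPM in SD, at 20.0, 19.7 and 20.6 in MASLD, at 18.9, 11.95 and 17.5 in 0.1x and at 19.9, 12.7 and 14.0 in 1x livers. Cdh5 rose with the diet by 1.04 ± 0.20 (adjusted p = 0.00150). Relative to Cdh5 in the same library, 9 of the 10 genes were lower in MASLD than in SD livers, and Lyve1 was higher. All 10 ratios share Cdh5, which rose more than any of the 10 but Lyve1, so this count restates the fold changes. Over 22 pan-endothelial genes the median log2 fold change on the diet was 0.59. With Pecam1, which rose less, in place of Cdh5, 7 of the other 9 were lower and Lyve1 and Stab2 higher, the log2 ratio of Stab2 being 0.48 ± 0.24 (SD, n = 3) in SD and 0.50 ± 0.15 in MASLD livers, within their spread. The log2 ratio of Dnase1l3 to Cdh5 was 1.78 ± 0.04 (SD, n = 3) in SD, 0.85 ± 0.15 in MASLD, 1.25 ± 0.10 in 0.1x and 1.57 ± 0.14 in 1x livers. For Kdr it was 0.97 ± 0.17, 0.11 ± 0.15, 0.36 ± 0.30 and 0.69 ± 0.28, and for Lyve1 -1.66 ± 0.32, -0.66 ± 0.21, -1.38 ± 0.41 and -0.91 ± 0.15. Against the MASLD group, the ratio was higher at 0.1x for 8 of 10 genes and at 1x for 9 of 10. These counts share Cdh5 too, at 11.95 to 18.9 CPM in 0.1x and 12.7 to 19.9 in 1x livers, beside 19.7 to 20.6 in MASLD. Some of the differences lay within the spread, as for Stab2, at 0.18 ± 0.07 in MASLD and 0.20 ± 0.30 in 0.1x livers (SD, n = 3). The ratio shows unequal change of a pair of genes and was not tested.

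**Figure D4:**
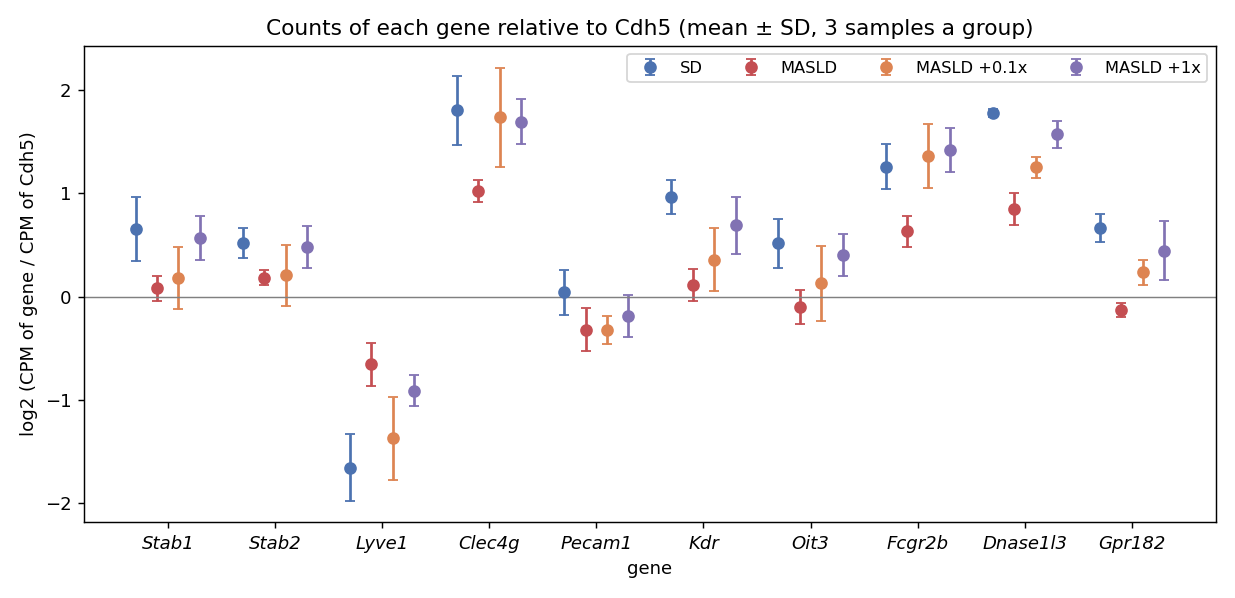
Log2 ratio of the CPM of each of the 10 genes to that of Cdh5 in the same library (vertical axis), as mean ± SD of 3 samples in each of 4 groups. For 9 genes the MASLD mean lies below the SD mean, and for Lyve1 it lies above.

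The genes around the 10 in endothelial biology were taken from lists, and the members of the 10 were left out of them. Among 21 other sinusoidal genes, 9 rose and 2 fell with the diet. F8, which encodes coagulation factor VIII, rose by 0.90 ± 0.13 (adjusted p = 0.000198), and Mrc1, the mannose receptor, by 0.81 ± 0.14 (adjusted p = 0.000594). Ctsl, a lysosomal protease, fell by 0.83 ± 0.11 (adjusted p = 5.32e-05), and Aass, an enzyme of lysine breakdown, fell by 0.81 ± 0.14 (adjusted p = 0.000651). At 0.1x and at 1x against MASLD, 0 of the 21 passed. Between doses 3 were higher at 1x, Aass, Adam23 and F8, and 1 lower, Clec1b, where 7.13% of all genes were higher and 5.86% lower. These calls were lost without any 1 of 4 libraries for Aass and for Adam23, of 5 for F8 and of 3 for Clec1b. Those of Adam23, F8 and Clec1b were also lost with the GC and length trend removed (adjusted p = 0.103, 0.568 and 0.0564).

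Of 22 pan-endothelial genes 8 rose with the diet, among them Cdh5, Clec14a (0.90 ± 0.16, adjusted p = 0.000810) and the phosphatase Ptprb (0.64 ± 0.13, adjusted p = 0.00260). The lipid receptor S1pr1 was the 1 that fell, by 0.41 ± 0.13 (adjusted p = 0.0309), a call lost with library totals and without any 1 of 5 libraries, all of SD and MASLD but SD sample 3 (adjusted p = 0.0557 to 0.143). At 0.1x 2 of the 22 fell against MASLD, where 7.09% of all genes fell, and at 1x 0 passed. The call of Ptprb at 0.1x was lost without any 1 of the 6 libraries (adjusted p = 0.0523 to 0.142). That of Clec14a was lost without any 1 of 5 (adjusted p = 0.0858 to 0.119) and once the GC and length trend was removed (-0.40, adjusted p = 0.129). Of 23 endothelial transcription factors tested, 7 rose with the diet, where 15.6% of all genes rose. Whether endothelial or other cells of the whole liver carried these rises was not tested. Zeb2 rose by 1.22 ± 0.20 (adjusted p = 0.000378), Ets1 by 0.86 ± 0.15 (adjusted p = 0.000730) and Maf by 0.61 ± 0.12 (adjusted p = 0.00138). Against MASLD 2 of these factors fell at 0.1x, Ets1 and Zeb2, and 0 passed at 1x. The fall of Ets1 was lost without MASLD sample 4 (adjusted p = 0.0673), and that of Zeb2 without any 1 of 6 libraries (adjusted p = 0.0578 to 0.122). Both were also lost with the GC and length trend removed. Gata4, the regulator of sinusoidal identity, was at -0.05 ± 0.12 (adjusted p = 0.792) on the diet. It was lower at 0.1x than in SD (-0.38 ± 0.12, adjusted p = 0.0418), a call lost without any 1 of 5 libraries, all SD samples and 0.1x samples 3 and 4 (adjusted p = 0.0623 to 0.117).

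Vessel wall and capillary genes, a list of capillary markers beside basement membrane and other genes, rose for 15 of 28 tested on the diet. None of them fell, where 15.6% of all genes rose and 13.9% fell. Cd9, which rose, is also on the list of monocyte and lipid-associated macrophage markers. Whether these rises reflect capillarization was not tested. Nid1, a basement membrane protein, rose by 2.53 ± 0.22 (adjusted p = 2.04e-06), the annexin Anxa2 by 2.79 ± 0.25 (adjusted p = 2.64e-06) and the collagen Col4a1 by 1.63 ± 0.26 (adjusted p = 0.000369). Stellate cells also make basement membrane, and their markers rose as given above. Capillary markers of the list that stayed short of the threshold were Cd34 (0.75 ± 0.37, adjusted p = 0.140), Vwf (0.83 ± 0.33, adjusted p = 0.0689) and Plvap (0.42 ± 0.17, adjusted p = 0.0711). Vwf passed without SD sample 3 (1.09, adjusted p = 0.0376), and Cd34 without MASLD sample 5 (1.04, adjusted p = 0.0484). At 0.1x 3 of the 28 fell against MASLD. Nid1 fell by 1.83 ± 0.21 (adjusted p = 0.00262), Col4a1 by 1.15 ± 0.26 (adjusted p = 0.0147), and Anxa2 by 0.99 ± 0.24 (adjusted p = 0.0177). The call of Col4a1 was lost without MASLD sample 4 (adjusted p = 0.0514) and once the trend on GC content and length was taken off (-0.75, adjusted p = 0.0768), and that of Anxa2 without MASLD sample 3, MASLD sample 4 or 0.1x sample 1 (adjusted p = 0.0582 to 0.0766). At 1x Anxa2 fell by 2.26 ± 0.25 (adjusted p = 0.000331) and Nid1 by 1.84 ± 0.21 (adjusted p = 0.000548), and 3 of the 28 fell in all.

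Zonated and angiocrine genes, a list that includes signals to hepatocytes beside other genes, rose for 6 of 24 tested and fell for 0 on the diet. Besides Nid1 they included Fabp4 (1.55 ± 0.16, adjusted p = 9.05e-06) and the hepatocyte growth factor Hgf (1.08 ± 0.24, adjusted p = 0.00376). At 0.1x 2 of the 24 fell against MASLD, Nid1 and Hgf, the latter by 1.22 ± 0.24 (adjusted p = 0.0109), and at 1x 2 fell. The Wnt ligand Wnt2 was at 0.01 ± 0.27 (adjusted p = 0.991) and Rspo3, which amplifies Wnt signals, at 0.45 ± 0.19 (adjusted p = 0.0959).

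In VEGF, angiopoietin and Notch signalling, 8 of 22 genes tested rose and 1 fell with the diet. The co-receptor Nrp2 rose by 1.69 ± 0.16 (adjusted p = 4.39e-06). Vegfa, the ligand of Kdr, was the 1 that fell, by 0.54 ± 0.16 (adjusted p = 0.0183). Vegfa stood at 35.1, 42.5 and 48.1 CPM in SD, at 26.4, 27.7 and 32.2 in MASLD, at 33.6, 43.0 and 38.6 in 0.1x and at 52.7, 48.7 and 35.9 in 1x livers. Each MASLD library was below each library of the other groups. Against MASLD, Vegfa rose at 1x by 0.67 ± 0.16 (adjusted p = 0.0339) and was at 0.42 ± 0.16 at 0.1x (adjusted p = 0.0881). The fall was lost without SD sample 5, MASLD sample 3 or MASLD sample 4 (adjusted p = 0.0704 to 0.0861). The rise was lost without MASLD sample 3, MASLD sample 4, 1x sample 2 or 1x sample 4 (adjusted p = 0.116 to 0.169), and both were lost with library totals. Flt1, a decoy receptor for the same ligand, was at 0.59 ± 0.23 on the diet (adjusted p = 0.0627), and passed without SD sample 3 (0.71, adjusted p = 0.0499).

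Scavenger and endocytic receptors other than the 10 rose for 11 and fell for 3 of 24 tested on the diet. Cd36, a fatty acid and scavenger receptor also made by hepatocytes and macrophages, rose by 2.85 ± 0.25 (adjusted p = 1.74e-06). The hepatocyte receptors Asgr2 and Asgr1 fell, by 1.03 ± 0.14 (adjusted p = 0.000104) and by 0.69 ± 0.13 (adjusted p = 0.00122). In hyaluronan turnover, the pathway of Lyve1 and Stab2, 5 of 8 genes tested rose and 0 fell. Cemip2, a cell surface hyaluronidase, rose by 1.12 ± 0.18 with the diet (adjusted p = 0.000326). It fell by 1.15 ± 0.18 at 0.1x against MASLD (adjusted p = 0.00433), and 3 of the 8 fell there in all. The others, Gusb and Hyal1, each lost the call without any 1 of 5 libraries (adjusted p = 0.0587 to 0.103 and 0.0791 to 0.124). At 1x 0 of the 8 passed against MASLD, and Cemip2 was higher at 1x than at 0.1x by 1.05 ± 0.18 (adjusted p = 0.00574). The synthase genes Has1, Has2 and Has3 were too low to be tested.

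Leukocyte adhesion genes rose for 5 and fell for 2 of 17 tested on the diet, F11r and Cd47 being the latter. Both falls were lost with library totals, under which the estimate of Cd47 was 0.06 (adjusted p = 0.701). F11r was also lost without SD sample 4, MASLD sample 3 or MASLD sample 5 (adjusted p = 0.0614 to 0.0754), and Cd47 without SD sample 3, SD sample 5, MASLD sample 3 or MASLD sample 5 (adjusted p = 0.0673 to 0.131). Vcam1, an adhesion molecule of activated endothelium, stood at 8.46, 6.36 and 8.08 CPM in SD, at 26.7, 25.6 and 17.8 in MASLD, at 16.9, 10.5 and 16.97 in 0.1x and at 19.5, 11.5 and 16.4 in 1x livers. It rose by 1.61 ± 0.23 with the diet (adjusted p = 0.000117). Against MASLD it was at -0.66 ± 0.22 at 0.1x (adjusted p = 0.0592) and at -0.56 ± 0.22 at 1x (adjusted p = 0.191).

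**Figure D5:**
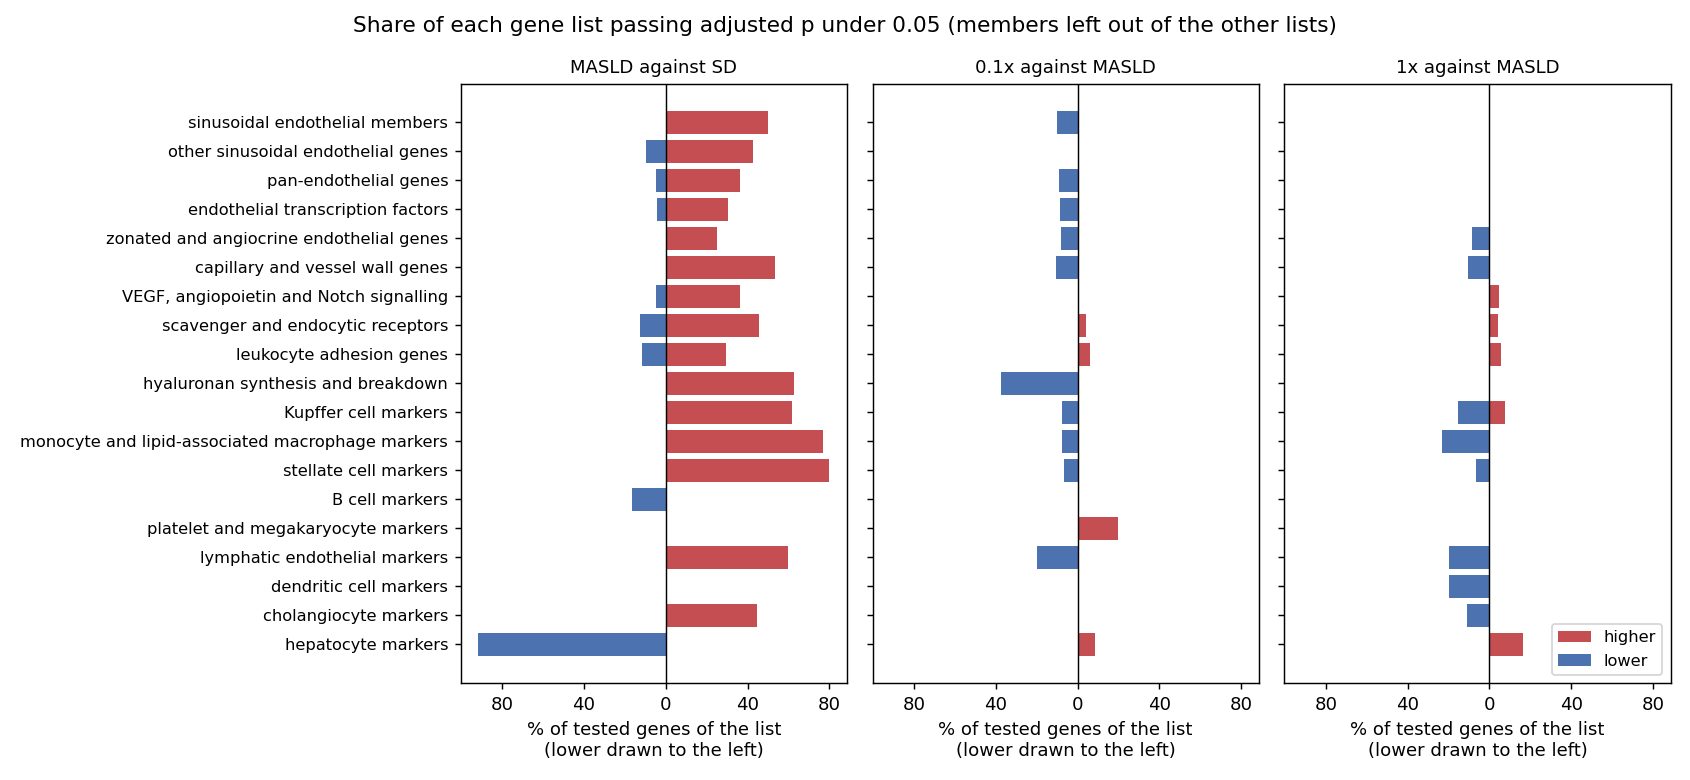
Share of the tested genes of each list (horizontal axis, percent) that passed an adjusted p under 0.05, higher drawn to the right in red and lower to the left in blue, in 3 comparisons. The top row holds the 10 sinusoidal genes: 5 of 10 higher with the diet, 1 lower at 0.1x and none at 1x. Bars of the diet panel point mostly right. Those of hepatocyte markers (11 of 12 lower) and B cell markers (1 of 6 lower) point left, with 0 higher in either list.

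Markers of other cells under the drug are given beside the 10 genes as they stood. Kupffer cell markers passed for 0 higher and 1 lower of 13 at 0.1x against MASLD, for 1 and 2 at 1x, and for 0 and 6 at 1x against 0.1x. Their sums were 526 to 594 CPM in 0.1x and 328 to 490 in 1x livers. Markers of monocytes and lipid-associated macrophages passed for 1 lower of 13 at 0.1x and 3 lower at 1x, with sums of 200.1 to 248 and 131 to 167 CPM. Stellate cell markers passed for 1 lower of 15 at each dose (367 to 528 CPM in 0.1x and 361 to 469 in 1x livers), and hepatocyte markers for 1 higher and 2 higher of 12 (101449 to 150518 and 115842 to 136328 CPM). Their part in the values of the 10 genes under the drug was not tested.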

How the data were processed

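Total RNA from liver was isolated on columns and made into stranded polyA libraries read as 150-base pairs, per the labels' protocols. The labels and the design text name different HiSeq instruments. Reads were aligned with STAR 2.7.3a to mm10, per the submitters' processing notes. Counting tool, strand setting and annotation: not given in the sources used here, so overlapping genes cannot be separated. The authors deposited raw whole-number counts per gene for 55471 gene IDs in 12 columns, each tied to a sample by its title. In 1 case the title gave 5 and the library name 8, and the column was matched by the library name. GENCODE vM21 named 55230 IDs.

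Counts were tested in 1 fit over 4 groups with edgeR 4.0.16 in R 4.3.3 (quasi-likelihood F test, TMM, filterByExpr, Benjamini-Hochberg over 13866 genes, threshold 0.05, two-sided) for 6 comparisons, checked on simulated counts. CPM are TMM-scaled, and the log2 CPM used a prior count of 2. Alternatives were RLE and upper-quartile factors, DESeq2 1.42.0, no filter, a mean of at least 1 CPM, 2-group fits, a replicate block, removal of a GC and length trend (mgcv 1.9.3), an adjusted p of 0.01, leaving out each library, and, chosen after seeing the data, library totals. Chi-square tests found each pair of replicates to differ beyond sampling noise. The 10 genes and all lists were chosen with earlier results of these data known. Genes named besides the 10 were Cdh5, Gata4, Vegfa, Flt1, Wnt2, Rspo3, Cd34, Vwf, Vcam1 and Plvap, up to 3 per direction, list and comparison with the smallest adjusted p, and the 5 most alike to the 10. The result of 1 listed gene is not reported here.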

Additional observations from a re-analysis of the deposited data

How the results depend on the processing

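Counts of the 10 genes that passed are given here with the share of all genes tested that passed in the same analysis. On the diet, 5 of the 10 passed (29.5% of all genes), 3 with the replicate block (23.7%), 3 with the replicate block and the GC and length trend removed together (24.7%), 2 at an adjusted p under 0.01 (16.3%), 9 with library totals (44.0%) and 2 to 6 with 1 library left out. The low count of 2 came without SD sample 4 (22.9%) and without MASLD sample 4 (18.8%). At 0.1x against MASLD 1 passed (13.2%), with 2 under upper-quartile factors (13.7%) and under DESeq2 (17.7%), 0 with the replicate block (0.238%), with the trend removed (3.61%), with both (0.00721%) and at an adjusted p under 0.01 (0.837%), and 0 to 1 with 1 library left out. At 1x against MASLD 0 passed (3.11%), and 1 without a filter (4.92%). Between doses 0 passed (13%), and 0 to 1 with 1 library left out. At 0.1x against SD 4 passed (20.7%), with 2 in the fit of only these groups (12.7%), 2 with the replicate block (9.95%), 2 at an adjusted p under 0.01 (9.52%), 8 with library totals (25.0%) and 2 to 5 with 1 library left out. At 1x against SD 7 passed (19.8%), with 1 under the replicate block (8.09%), 2 under block and trend removal together (9.70%), 10 with library totals (33.4%), and 4 to 9 with 1 library left out, the 4 being without 1x sample 2 (12%). Where a count of the 10 fell under the block or a stricter threshold, the share of all genes fell as well. Deviations of same-numbered samples correlated at -0.21 to 0.08. The labels do not say that the numbers mark a shared animal, litter or day, and these correlations cannot settle whether they do.

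Of 1020 re-computed fold changes of the 10 genes, 883 kept direction and call, 39 took the other sign without passing in either analysis, 72 lost and 26 gained a call, and 0 called values reversed. Among the named genes outside the list, Ptprb at 0.1x against MASLD (main -0.43) was at 0.041 with the trend removed and 0.15 with the block as well, Ptprb at 1x against 0.1x (main 0.44) was at -0.12 with both, and Cd47 on the diet (main -0.30) was at 0.062 with library totals. Library totals gave 2812 genes higher and 661 lower at 0.1x against SD (main 1366 and 1506), 4126 and 508 at 1x against SD (main 1374 and 1365), 324 and 1664 at 0.1x against MASLD (main 843 and 983), 1310 and 480 at 1x against 0.1x (main 989 and 813) and 146 and 254 at 1x against MASLD (main 207 and 224). The cause of these shifts was not tested. Lyve1, with as few as 78 counts in an SD library, had the thinnest depth of the 10.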
